A study of Rattus norvegicus with 6 samples.

Results

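The prolactin and growth hormone receptors and their shared kinase and transcription factors were followed in the rat dorsolateral prostate by all probe sets annotated to 6 genes: the receptors Prlr and Ghr, the kinase Jak2 and the STAT factors Stat5a, Stat5b and Stat3. These genes had 16 of the 8799 probe sets of the array, namely 5 for Prlr, 3 each for Ghr and Jak2, 2 each for Stat5a and Stat3 and 1 for Stat5b. Of the 16, 12 passed the filter on dim probe sets (a mean of at least 343 intensity units over all arrays) and were tested, and 4 did not. The arrays came from male rats of the inbred ACI strain aged 18 months, 3 on a high and 3 on a low corn oil diet, each diet fed for 18 months. Per the labels a part of each prostate was used for RNA and the rest for histology, so each array holds the RNA of all cells of 1 animal's tissue. In such bulk tissue, fewer cells of a type and less RNA per cell cannot be told apart. High corn oil replicates 1 to 3 are written H1 to H3 and low corn oil replicates 1 to 3 L1 to L3. H3 was placed by its title and source name, although its description field has the low diet, so the fit was also run with H3 in the low group.

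Prolactin and growth hormone are pituitary hormones whose receptors belong to the cytokine receptor family and have no kinase domain of their own. Hormone binding activates JAK2 held on the receptor, which phosphorylates the receptor and STAT5A or STAT5B, and also STAT3 in many cells. The phosphorylated STATs pair, enter the nucleus and bind DNA, and genes such as Cish and Socs2 then feed back on the receptor. In the rat prostate, prolactin acts mainly on the dorsal and lateral lobes, where it promotes growth, secretion and citrate production.

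The DNA element bound by STAT5 and STAT3 dimers is written TTCNNNGAA, where N is any base, and it is its own reverse complement, so 1 search covers both strands. It was searched in RefSeq promoter windows running from 250 bases before to 50 after a transcription start (build GRCr8). Of all 33469 windows, 8.87% held at least 1 copy, and 2 windows held 4. One of these 2 was the window of Cish, a feedback inhibitor of STAT5 signalling and its textbook target gene. It is shown whole because it carries 4 copies that do not overlap. Shorter stretches are given for Irf1 and Csn2 (beta-casein), which are prolactin-induced in lymphoma cells and in mammary gland, and for 1 of the 2 Prlr windows. Capitals mark the motif, and sequences run 5′ to 3′ on the gene's strand.
Cish, chr8:116850719-116851018, plus strand: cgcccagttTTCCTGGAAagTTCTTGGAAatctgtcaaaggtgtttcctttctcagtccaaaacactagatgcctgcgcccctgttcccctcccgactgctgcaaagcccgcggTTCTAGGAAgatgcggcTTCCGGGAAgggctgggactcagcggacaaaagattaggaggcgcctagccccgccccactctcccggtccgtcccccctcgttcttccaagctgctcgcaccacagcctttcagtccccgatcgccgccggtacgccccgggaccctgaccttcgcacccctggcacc
Irf1, chr10:38417783-38417811, plus strand: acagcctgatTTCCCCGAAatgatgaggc
Csn2, chr14:20601717-20601745, plus strand: tcatgtggacTTCTTGGAAttaagggact
Prlr, chr2:60909473-60909501, plus strand: ccaaaatgagTTCTAGGAAtaaagaatat
The Cish copies began 241, 230, 136 and 119 bases before the start, the Irf1 copy 142, the Csn2 copy 97 and the Prlr copy 176 bases before it. Of the 7 windows of the 6 genes, the Prlr window was the 1 with a copy. Among 28 windows of 24 target and feedback genes, 7 windows (25%) held one, from 6 genes: Cish, Socs1, Irf1, Csn2, Csn1s1 and, in 2 windows that overlap, Bcl2l1. A match describes the letters and does not show binding.

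The arrays did not all stand alike, which touches several of the results below. H1 had Spearman correlations over all tested probe sets of 0.87 and 0.88 with H2 and H3, its fellow high corn oil arrays, against 0.93 to 0.95 with L1 to L3. The signal of BioB, BioC and BioD, bacterial transcripts spiked into every hybridization in set amounts, averaged 14.06, 12.62 and 13.17 on the log2 scale in high corn oil rats, against 14.36, 13.91 and 13.06 in low corn oil rats. Spike-in signal was thus higher on H1, L1 and L2 and lower on H2, H3 and L3. Probasin (Pbsn M27156_at), a secretory protein of the dorsolateral lobes, was at 99574, 19851.1 and 21926.3 in high corn oil rats, against 78113.3, 82038.7 and 81436.9 in low corn oil rats, so its RNA was present on every array but low in H2 and H3. Msmb and Krt18 were lowest in H2 and H3 too, whereas the spermine-binding protein gene Sbp was at 1891.1, 45313.4 and 53056 in high corn oil rats, against 39729.4, 6800.9 and 12179 in low corn oil rats, highest in H2 and H3, and Epcam was highest in H2. Of the 7 secretory epithelium markers measured, 3 were higher and 4 lower under the high diet in mean log2 level. The summed intensity of the 7 ran from 180295 to 272498 under the high diet and from 241306 to 279330 under the low diet. For 7 fibroblast markers it ran from 57466 to 78434 under the high and from 89997 to 125568 under the low diet, with all 7 lower under the high diet in mean log2 level. For 5 macrophage and leukocyte markers, of which 4 were lower, it ran from 41128 to 45223 under the high and from 46184 to 52306 under the low diet. Aif1, C1qb and C1qc were lower on every high corn oil array than on any low corn oil array. Cd74, the brightest of the 5, overlapped between the diets. Ptprc overlapped too and was higher under the high diet in mean log2 level.

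No probe set of the 6 genes differed between the diets past the threshold. Limma called 0 of the 12 tested probe sets, with adjusted p between 0.505 and 0.994, and 0 of all 5244 tested probe sets (0%). At an unadjusted p under 0.05 there were 0 of 12, against 9.95% of all probe sets. In 0 of the 12 did the diets' values not overlap, against 15.5% of all. The log2 difference, high minus low corn oil, was above 0 in 8 of the 12 and in 53.9% of all. With 3 rats per diet these p-values do not show that the genes were alike, and the 95% intervals give the sizes the data allow.

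**Figure D1:**
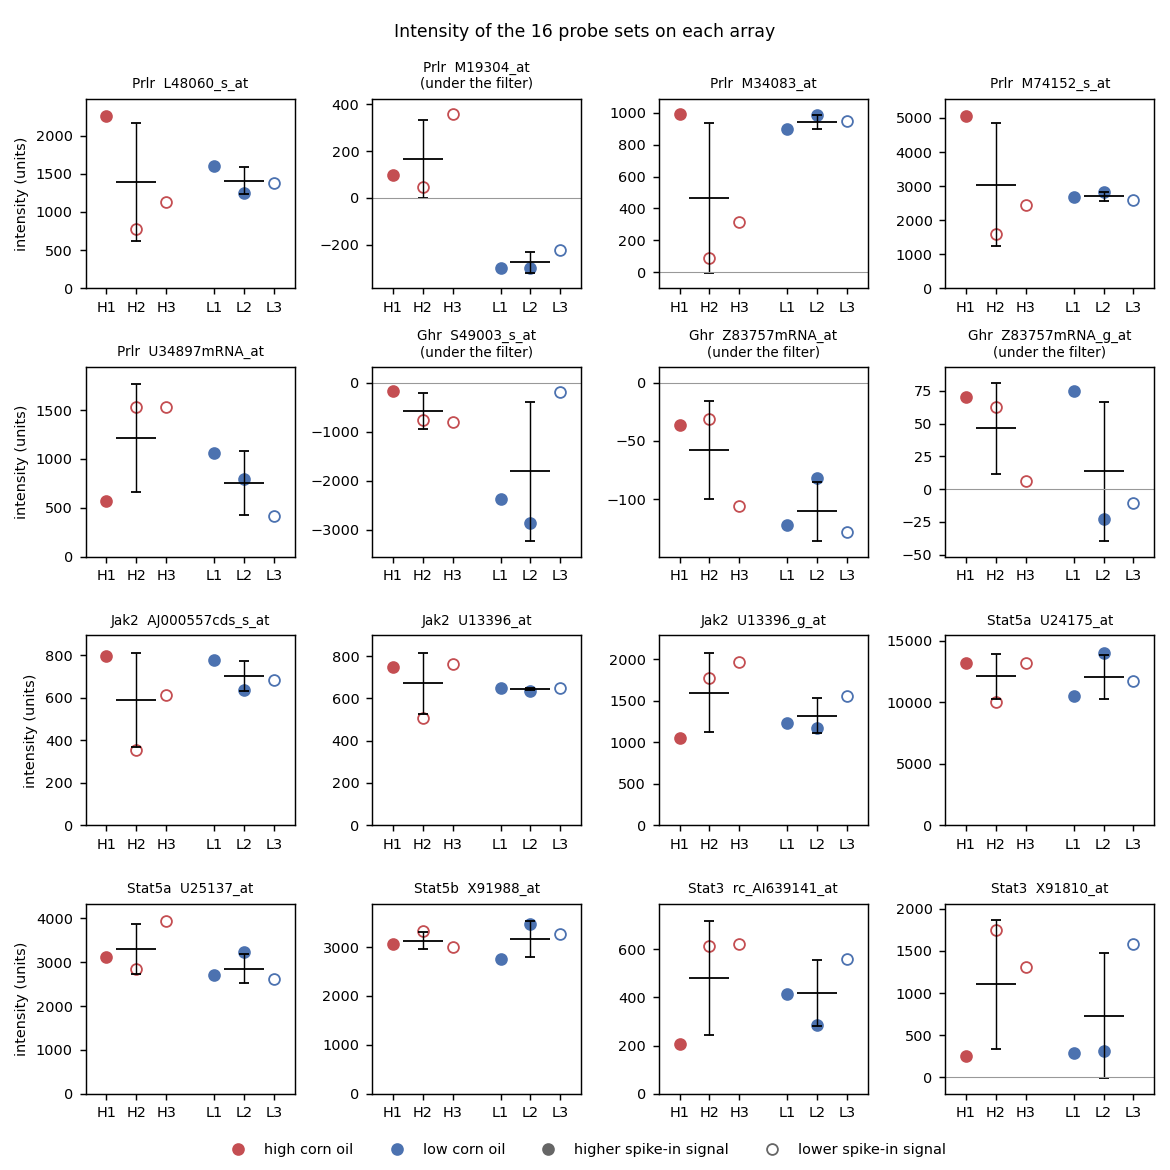
Deposited intensity (vertical axis, linear, arbitrary units) of each of the 16 probe sets on the 3 high (H1 to H3) and 3 low (L1 to L3) corn oil arrays; horizontal lines are diet means, vertical bars SD (n = 3), and filled points are arrays with higher spike-in signal. The diets overlap in all 12 tested probe sets, and the Stat3 probe sets separate filled from open points.

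Prlr, the prolactin receptor gene, was measured above the filter by 4 probe sets. M34083_at, L48060_s_at and M74152_s_at ordered the arrays much alike (Spearman 0.77 to 0.94), and U34897mRNA_at ran against them (-0.83 to -0.66). M74152_s_at read 5061.3, 1603.1 and 2447.2 in high corn oil rats, against 2675.2, 2830.0 and 2586.8 in low corn oil rats. H1 was the highest of the 6 arrays and the other high corn oil arrays the lowest, and the means were 3037 ± 1803 in high corn oil rats and 2697 ± 123 in low corn oil rats (SD, n = 3 each). The log2 difference was 0.01 ± 0.37 (SE) with a limma adjusted p of 0.988, and the 95% interval ran from 0.55-fold to 1.84-fold. L48060_s_at had the same shape, at 2259.8, 782.4 and 1133.6 in high corn oil rats, against 1599.7, 1248.6 and 1378.2 in low corn oil rats. Its log2 difference was -0.12 ± 0.35 (limma adjusted p = 0.894).

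M34083_at, a dim probe set, read 990.9, 89.6 and 317.1 in high corn oil rats, against 897.6, 987.9 and 948.0 in low corn oil rats. The low corn oil arrays lay close together, H1 was level with them, and H2 and H3 were below. The log2 difference of -1.11 ± 0.53 was the largest of the 12 in size (limma adjusted p = 0.505), and its interval ran from -2.35 to 0.14 on the log2 scale. Its size leaned on H2, which was below the pseudocount of 156.1: it was -0.61 with a pseudocount 4 times as large and -0.58 without H2.

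U34897mRNA_at went the other way. It was at 575.0, 1534.2 and 1527.3 in high corn oil rats, against 1064.5, 795.0 and 412.0 in low corn oil rats, with H2 and H3 the highest and H1 second lowest. The log2 difference was 0.55 ± 0.43 (limma adjusted p = 0.623), or 0.24 without L3. The remaining probe set, M19304_at, was under the filter and was not tested. Its values were 97.9, 47.7 and 357.1 in high corn oil rats, against -299.3, -301.5 and -224.6 in low corn oil rats. All 3 high corn oil arrays were above 0 and all 3 low corn oil arrays below it, so no fold can be given. Its mean over all arrays was -53.8, far under the filter, so the split is not read as a diet difference. How often probe sets under the filter split by diet was not counted.

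The 3 Prlr probe sets that were low in H2 and H3 shared that shape with probasin M27156_at. Without H1, the log2 differences were -1.69 for M34083_at (limma adjusted p = 0.0572), -0.50 for L48060_s_at (adjusted p = 0.224), -0.41 for M74152_s_at (adjusted p = 0.266) and 0.95 for U34897mRNA_at (adjusted p = 0.154). None of the 12 tested probe sets of the 6 genes passed limma in that comparison, where 4.08% of all probe sets did. In that comparison both high corn oil arrays had lower spike-in signal and 2 of the 3 low corn oil arrays had higher signal. The summed secretory markers were also lowest in H2 and H3, as were Pbsn, Msmb and Krt18 singly. Sbp was highest there and Epcam was highest in H2, while Tgm4 was lowest in L3 and Krt8 in H2 and L2. The part of the secretory markers in the Prlr values was not tested.

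**Figure D2:**
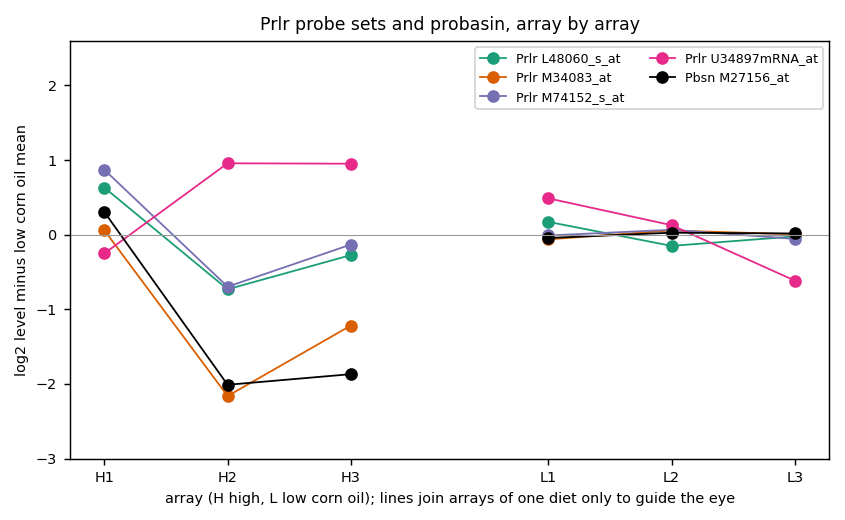
Level of the 4 tested Prlr probe sets and of probasin (Pbsn) on each array, as log2(intensity + 156.1) minus the low corn oil mean (vertical axis); lines only guide the eye. M34083_at, L48060_s_at, M74152_s_at and Pbsn M27156_at were lowest in H2 and H3, where U34897mRNA_at was highest.

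Ghr, the growth hormone receptor gene, had values near or below 0 in all 3 probe sets. Z83757mRNA_at read -36.3, -30.8 and -106.0 in high corn oil rats, against -121.9, -81.6 and -128.4 in low corn oil rats. Z83757mRNA_g_at was at 70.0, 62.5 and 6.4 in high corn oil rats, against 74.5, -23.1 and -10.5 in low corn oil rats. S49003_s_at was below 0 on all 6 arrays, from -806.0 to -159.9 under the high and from -2860.8 to -192.3 under the low diet. All 3 Ghr probe sets were under the filter and none was tested. Values at or below 0 do not show that the transcript was missing.

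The hormone genes were also under the filter. The 3 probe sets of Prl ran from -1222.1 to 169.2 under the high diet and from -640.9 to 47.7 under the low diet. Gh1, the growth hormone gene, read 100.1, 375.0 and 175.0 in high corn oil rats, against 174.6, 169.9 and 231.3 in low corn oil rats, and Prl3b1, a placental lactogen gene, 371.3, 496.1 and 261.7 in high corn oil rats, against 255.3, 270.4 and 191.3 in low corn oil rats. None of the 3 ligand genes measured passed the filter.

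Jak2, the kinase both receptors use, had no diet difference past the threshold in its 3 probe sets, which ordered the animals differently. AJ000557cds_s_at read 799.8, 356.6 and 614.5 in high corn oil rats, against 778.2, 639.6 and 685.1 in low corn oil rats, a log2 difference of -0.24 ± 0.30 (limma adjusted p = 0.747). Its order over the 6 arrays was that of Prlr L48060_s_at, with H1 at the top and H3 and H2 at the bottom. U13396_at was at 747.4, 505.9 and 762.9 in high corn oil rats, against 648.4, 637.2 and 647.1 in low corn oil rats, with a log2 difference of 0.03 ± 0.25 (limma adjusted p = 0.965). U13396_g_at, designed from the same sequence record, read 1056.8, 1772.2 and 1969.3 in high corn oil rats, against 1227.1, 1169.0 and 1559.7 in low corn oil rats. There H1 was the lowest array and H2 and H3 the highest, and the log2 difference was 0.22 ± 0.26 (limma adjusted p = 0.738), or 0.04 blocked on spike-in level and 0.47 without H1. The 95% intervals ran from 0.52-fold to 1.38-fold for AJ000557cds_s_at, from 0.68-fold to 1.53-fold for U13396_at and from 0.76-fold to 1.79-fold for U13396_g_at.

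Stat5a and Stat5b, neighbouring genes that encode the main STATs of both hormones, had the smallest standard errors of the 5 tested genes. U24175_at of Stat5a read 13153.9, 9995.1 and 13175.2 in high corn oil rats, against 10474.7, 14021.8 and 11714.0 in low corn oil rats. Both diets spanned about the same range, and the means of 12108 ± 1830 in high corn oil rats and 12070.2 ± 1800.2 in low corn oil rats (SD, n = 3 each) gave a log2 difference of 0.00 ± 0.18 (limma adjusted p = 0.994). The 95% interval ran from 0.75-fold to 1.33-fold. U25137_at of Stat5a was at 3124.8, 2843.1 and 3937.4 in high corn oil rats, against 2699.1, 3230.9 and 2628.4 in low corn oil rats, a log2 difference of 0.19 ± 0.18 (limma adjusted p = 0.676). In both Stat5a probe sets H3 was above H2, and L2 was the highest low corn oil array.

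Stat5b, read by X91988_at, was at 3070.9, 3332.7 and 2991.6 in high corn oil rats, against 2765.2, 3464.2 and 3275.5 in low corn oil rats. Its highest array exceeded its lowest 1.25-fold, and its SD over the arrays on the log2 scale was at the 4.01 percentile of all tested probe sets. The log2 difference of -0.01 ± 0.16 had an interval from 0.77-fold to 1.28-fold (limma adjusted p = 0.979).

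**Figure D3:**
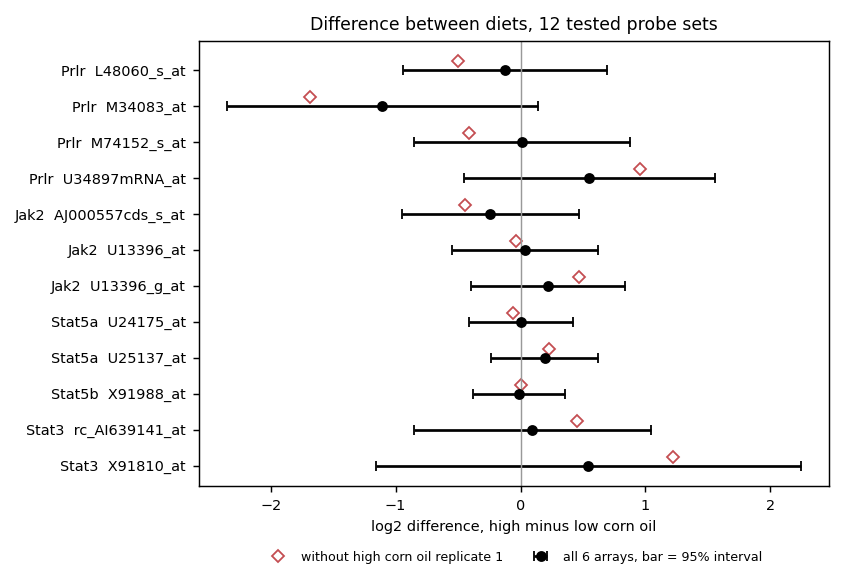
Log2 difference, high minus low corn oil, of the 12 tested probe sets (horizontal axis) with 95% intervals from all 6 arrays; diamonds leave out H1. All 12 intervals include 0, and they are narrowest for Stat5b (-0.38 to 0.36) and widest for Stat3 X91810_at (-1.16 to 2.25).

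Stat3, the STAT of the interleukin-6 family that also responds to both hormones in some cells, split the animals across the diets. X91810_at read 253.8, 1747.1 and 1308.1 in high corn oil rats, against 293.1, 316.2 and 1585.1 in low corn oil rats. The 3 arrays with lower spike-in signal, H2, H3 and L3, were all far above the other 3, 1308.1 at the lowest against 316.2 at the highest. Between diets the log2 difference was 0.54 ± 0.73 (limma adjusted p = 0.764), with an interval from 0.45-fold to 4.74-fold. With 1 array left out it ran from 0.11 without H2 to 1.22 without H1, and each of the 6 arrays moved it by over 1.5 times. Within the arrays of lower spike-in signal (H2 and H3 against L3 alone) the difference was -0.06. Within those of higher signal (H1 alone against L1 and L2) it was -0.17. A limma fit that blocked on spike-in level gave -0.11.

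The other Stat3 probe set, rc_AI639141_at, also separated by spike-in signal. It was at 208.0, 613.6 and 620.0 in high corn oil rats, against 413.8, 284.2 and 558.4 in low corn oil rats, a log2 difference of 0.09 ± 0.41 (limma adjusted p = 0.936). Its 3 highest arrays were those with lower spike-in signal, at 597 ± 34 against 302 ± 104 on the arrays with higher signal (SD, n = 3 each). For X91810_at these means were 1547 ± 222 and 288 ± 32.

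Separation by spike-in signal was common on these arrays, at 24.1% of all tested probe sets and in 4 of the 12 of the 6 genes. Besides the Stat3 probe sets these were Jak2 U13396_g_at, higher where the spike-in signal was lower, and Prlr M74152_s_at, lower there. The arrays of lower spike-in signal were above in 3 of the 12, beside 15.6% of all. In X91810_at the log2 gap was 1.93, which ranked 60 of 5244 tested probe sets, while rc_AI639141_at at 0.74 ranked 802 and U13396_g_at at 0.55 ranked 1306. These groups of arrays were formed from spike-in signal and are no groups of the study, and the part of hybridization in the Stat3 values was not tested.

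**Figure D4:**
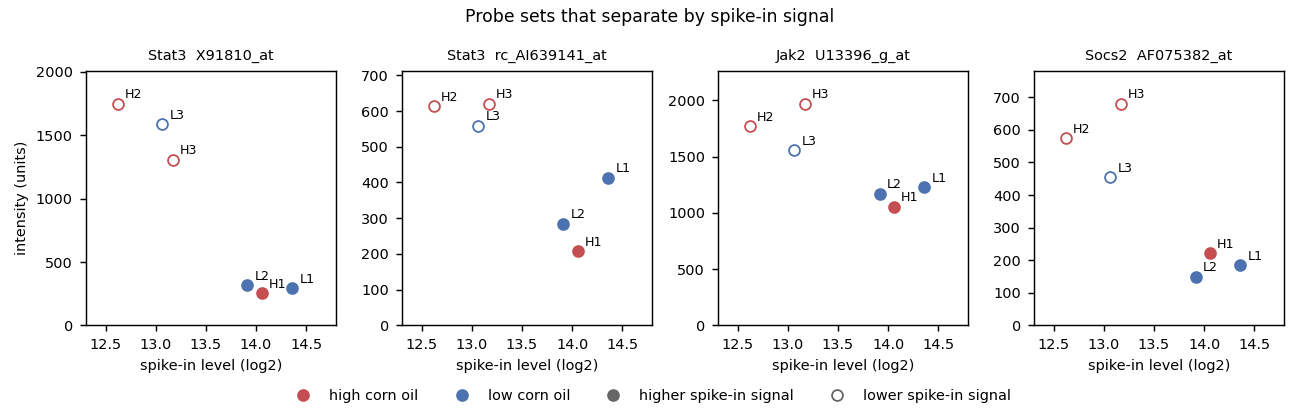
Intensity (vertical axis, linear units, from 0) of both Stat3 probe sets, Jak2 U13396_g_at and Socs2 against the mean log2 signal of the spike-in controls on each array (horizontal axis). The 3 arrays with lower spike-in signal, H2, H3 and L3, lie above the other 3 in every panel.

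Across the 6 arrays the probe sets with the shape most like each gene's brightest tested probe set were named as a description. For Prlr M74152_s_at they belonged to the calcium channel gene Orai1 (r = 0.99) and the ribosomal protein gene Rpl11 (r = 0.98), among 45 of 4309 probe sets with r above 0.9. For Jak2 U13396_g_at they were Myl7 (r = 0.99), a myosin light chain gene, and the blood group gene Rhd (r = 0.99), and for Stat3 X91810_at the nitric oxide synthase gene Nos3 (r = 0.998) and the GABA transporter gene Slc6a11 (r = 0.99). Stat5a U24175_at was most like Pygb (r = 0.99), the brain glycogen phosphorylase gene, and Svs4 (r = 0.98), which encodes a seminal vesicle secretory protein. Stat5b X91988_at was most like the glutathione synthesis gene Gclm (r = 0.97) and Aspg (r = 0.97). Probe sets with r above 0.9 numbered 197 for Jak2, 15 for Stat5a, 19 for Stat5b and 105 for Stat3. The 6 arrays share scaling, diet and hybridization differences, and no test was made.

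The genes around this core were read from a list of 93 genes, of which 68 had a probe set and 47 were tested. Limma called 0 of the 47, with Stat6 and Irf1 the 2 at an unadjusted p under 0.05, beside 9.58% of all genes. Without H1 it called 3 of the 47, Il6st, Junb and Ccnd1, beside 4.08% of all probe sets. Of the 47, 21 were higher and 26 lower under the high diet, with a median log2 difference of -0.03, beside 55.8% higher and a median of 0.05 over all 3162 genes tested. The diets did not overlap in 5 of the 47 (Stat6, Pias2, Ptpn2, Grb2 and Irf1), beside 15.7% of all genes, and 15 separated by spike-in signal, beside 23.9% of all genes. Of the genes named below, Il6st, Il4r, Src, Socs2, Pik3r1 and Junb were among the 15.

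**Figure D5:**
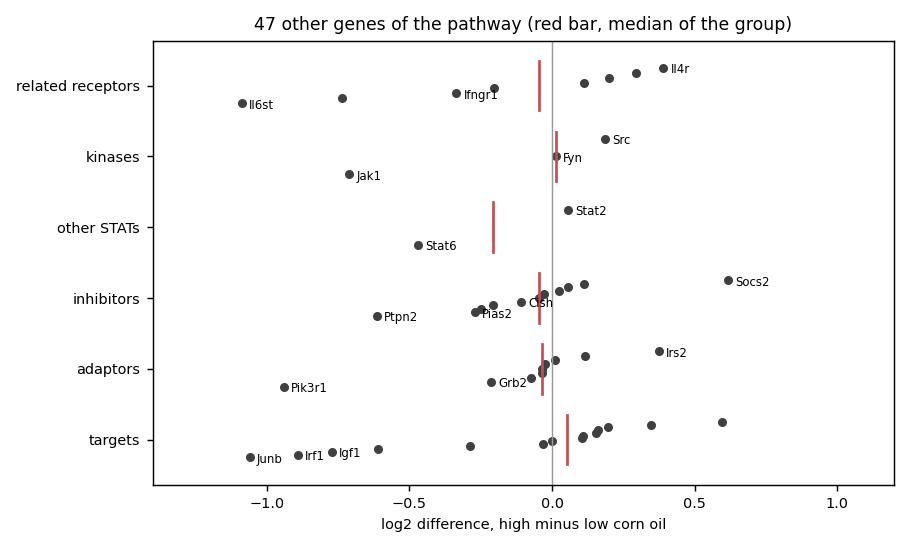
Log2 difference, high minus low corn oil, of the 47 tested genes of the wider pathway by role (rows); each point is 1 gene by its probe set with the highest mean, and red bars are group medians. Medians ranged from -0.21 for the other STATs to 0.05 for the targets.

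Among 8 related cytokine receptors 4 were higher and 4 lower, and 0 passed limma. Il6st, the gp130 subunit through which interleukin-6 reaches STAT3, read 3304.7, 762.7 and 1049.6 in high corn oil rats, against 3685.2, 3246.6 and 2658.2 in low corn oil rats. H2 and H3 were far below the other 4 arrays, the values separated by spike-in signal, and the log2 difference was -1.09 ± 0.47 (limma adjusted p = 0.4997). Without H1 it was -1.66 (limma adjusted p = 0.0231), without H2 -0.70, and blocked on spike-in level it was -0.74. The interleukin-4 receptor gene Il4r was at 0.39 ± 0.23 and the interferon-gamma receptor gene Ifngr1 at -0.34 ± 0.22 in log2 difference, with 0.22 for Il4r without H3 and -0.16 for Ifngr1 without L1.

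Of 3 other tested kinases, 2 were higher and 1 lower. Jak1, which pairs with gp130 and interferon receptors, read 2041.8, 542.4 and 1034.9 in high corn oil rats, against 1641.5, 1571.4 and 2423.6 in low corn oil rats, a log2 difference of -0.71 ± 0.41 (limma adjusted p = 0.538), -0.31 without H2 and -1.13 without H1. The log2 differences of the Src family genes Src and Fyn were 0.19 ± 0.27 and 0.01 ± 0.38, with ranges of 0.07 to 0.33 for Src and -0.39 to 0.25 for Fyn when 1 array was left out. Stat6, the STAT of interleukin-4, had diets that did not overlap, at 907.5, 1050.6 and 959.3 in high corn oil rats, against 1396.8, 1462.4 and 1359.4 in low corn oil rats. Its log2 difference was -0.47 ± 0.18, which did not pass limma (adjusted p = 0.480), and that of Stat2 was 0.06 ± 0.19.

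Inhibitors of the pathway numbered 11 tested genes, 4 higher and 7 lower. Cish, whose promoter is shown above, read 1140.5, 280.1 and 1325.3 in high corn oil rats, against 577.1, 952.2 and 1139.2 in low corn oil rats. H2 and L1 were the lowest, as they were for Stat5a U24175_at but not for Stat5a U25137_at or Stat5b. The log2 difference of Cish was -0.11 ± 0.49 (limma adjusted p = 0.938). Socs2, a feedback inhibitor of growth hormone signalling, was at 221.4, 573.6 and 679.6 in high corn oil rats, against 185.4, 149.1 and 454.4 in low corn oil rats. It separated by spike-in signal as Stat3 did, and its log2 difference was 0.62 ± 0.45 (limma adjusted p = 0.604), or 0.29 blocked on spike-in level. Socs3, the feedback inhibitor of STAT3 signalling, was below 0 on all 6 arrays, from -450.3 to -233.0 under the high and from -343.0 to -59.0 under the low diet, and Socs1 had no probe set named here. The SUMO ligase gene Pias2 had a log2 difference of -0.27 ± 0.16, and Ptpn2, a phosphatase of JAK and STAT proteins, -0.61 ± 0.36, which was -0.18 without H3.

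In the branch to the PI3 and MAP kinases, 3 of 9 adaptors were higher and 6 lower. Pik3r1, the regulatory subunit of PI3 kinase, had a log2 difference of -0.94 ± 0.46 (limma adjusted p = 0.507) in U50412_at. Its values separated by spike-in signal, and blocked on it the difference was -0.61. The dimmer Pik3r1 probe set D64045_s_at did not separate so, with a log2 difference of -0.07 ± 0.45 (limma adjusted p = 0.957). The log2 difference was -0.21 ± 0.13 for the adaptor gene Grb2 and 0.37 ± 0.35 for the insulin receptor substrate gene Irs2, the second being 0.06 without H2.

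Target genes went both ways, 7 of 14 higher and 7 lower. Irf1, an interferon response factor that prolactin induces through a STAT element in rat lymphoma cells, read 1485.5, 2203.9 and 1299.4 in high corn oil rats, against 3232.2, 3204.4 and 2997.8 in low corn oil rats. All 3 high corn oil arrays were below all 3 low corn oil arrays, and the log2 difference of -0.89 ± 0.22 did not pass limma (adjusted p = 0.462). Its dimmer probe set M34253_at, at 474.4, 216.0 and 283.8 in high corn oil rats, against 1425.1, 1665.0 and 1153.8 in low corn oil rats, differed by -1.73 ± 0.29 (limma adjusted p = 0.462), the lowest adjusted p among the 5244, which many probe sets shared. Junb, an immediate early gene induced by STAT3, was at 4795.7, 1319.5 and 1414.2 in high corn oil rats, against 5225.5, 4661.3 and 3847.4 in low corn oil rats. These values separated by spike-in signal too. The log2 difference was -1.06 ± 0.45 (limma adjusted p = 0.4997), and without H1 it was -1.63 (limma adjusted p = 0.0208). A dimmer Junb probe set, X54686cds_at, read 1911.1, 24.5 and 943.0 in high corn oil rats, against 5384.8, 3341.8 and 2677.3 in low corn oil rats. There the diets did not overlap, and the values did not separate by spike-in signal. H2 was below the pseudocount of 156.1, and the log2 difference of -2.35 ± 0.82 did not pass limma (adjusted p = 0.480). Igf1, the main growth hormone target in liver, read 2605.1, 4315.0 and 1406.5 in high corn oil rats, against 5114.7, 3776.3 and 4468.6 in low corn oil rats in M15481_g_at. The log2 difference was -0.77 ± 0.36 (limma adjusted p = 0.505), or -0.38 without H3, and its other 4 probe sets were under the filter. The sums of the fibroblast markers and of the macrophage and leukocyte markers given above were lower under the high diet as well. Cd74 overlapped between the diets, and Ptprc leaned the other way. The part of these markers in the Irf1, Junb and Igf1 values was not tested. The casein genes Csn2, Csn1s1 and Csn3, prolactin targets of the mammary gland, were under the filter, with values from -567.7 to 577.3 over all arrays.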

How the data were processed

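Total RNA from 6 dorsolateral prostates was hybridized, 1 rat per array, to an array of 8799 probe sets. The deposited intensity values were on a linear scale. The submitters' processing notes list MAS5 and no other tool, without version or settings. With 2% of probe sets trimmed from each end, every array averaged 2503 or 2504, so the authors had scaled the arrays before deposit. Values at or below 0 occurred on every array, and the step that made them is not given in the sources used here. Whether the deposited values are MAS5 signals is therefore unclear. Detection calls were not used here.

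Probe sets were named from the platform annotation, updated through gene identifiers to RefSeq (GRCr8). Of the non-control probe sets, 7006 had 1 gene, 308 had several and 1426 had none. Values below 0 were set to 0 and transformed as log2(value + 156.1), where 156.1 is the median of all values divided by 4. Probe sets with a mean of at least 343 (the 40th percentile) were tested, which left 5244. The diet effect was fitted by limma (version 3.58.1, R 4.3.3; lmFit, then eBayes with an intensity trend, tested in both directions), adjusted by Benjamini-Hochberg over all 5244, at a threshold of 0.05. The fit had no covariate and was tested on simulated data. The simulated noise was independent between arrays and of equal spread in all probe sets. It held none of the array differences given above, so it says nothing about their effect.

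The text names all probe sets of the 6 genes. From each group of pathway genes it names the 3 with the smallest unadjusted p, and it always names Prl, Gh1, Igf1, Cish, Socs1, Socs2 and Socs3 where a probe set exists. For the brightest tested probe set of each of the 6 genes except Ghr, which had none, it names the 2 genes most alike across arrays. A pathway gene was represented by its tested probe set with the highest mean. The members, lists, tests and alternatives were chosen with earlier results of these data known. Alternatives changed the pseudocount, filter, normalization, transformation, intensity trend, array weights, replicate or spike-in block and the group of high corn oil replicate 3, or left out 1 array. Motifs were searched in RefSeq promoter windows of the GRCr8 build.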

Additional observations from a re-analysis of the deposited data

How the results depend on the processing

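No probe set of the 6 genes passed limma under any alternative. Among the 12 tested in the main fit the lowest limma adjusted p was 0.0572, for Prlr M34083_at without H1. Over all probe sets limma called 9 with no filter against 0 as reported, and 0 to 214 when 1 array was left out, the highest without H1. Among the 47 pathway genes it called 0 to 3 with 1 array left out, the 3 being Il6st, Junb and Ccnd1 without H1. The filter at the 60th percentile left some probe sets untested. These were Prlr M34083_at and U34897mRNA_at, Jak2 AJ000557cds_s_at and U13396_at, both Stat3 probe sets and some pathway genes. Prlr M34083_at (-1.69 to -0.58 with 1 array left out) and Prlr U34897mRNA_at (0.24 to 0.95) kept their direction in every alternative that tested them. So did 12 of 18 named pathway genes. The others turned, by log2 difference (high minus low corn oil), as follows. With H3 counted as low, it was 0.019 for Prlr L48060_s_at, -0.099 for Jak2 U13396_at, -0.072 for Jak2 U13396_g_at, -0.096 for Stat5a U24175_at, -0.047 for Stat5a U25137_at, 0.037 for Stat5b, -0.21 for Stat3 rc_AI639141_at, -0.029 for Src, -0.24 for Fyn, -0.033 for Stat2, 0.19 for Ptpn2 and 0.0063 for Igf1. With spike-in level as a block it was 0.071 for Prlr L48060_s_at, -0.17 for Stat3 rc_AI639141_at and -0.11 for Stat3 X91810_at. Quantile normalization gave -0.030 for Prlr M74152_s_at, -0.018 for Jak2 U13396_at, -0.016 for Stat5a U24175_at and -0.015 for Fyn, and array weights gave -0.21 for Prlr M74152_s_at, -0.085 for Stat5a U24175_at and -0.079 for Fyn. A pseudocount 4 times as large gave -0.0012 for Fyn. With 1 array left out the values ran from -0.50 to 0.18 for Prlr L48060_s_at, -0.41 to 0.37 for Prlr M74152_s_at, -0.44 to 0.0052 for Jak2 AJ000557cds_s_at, -0.049 to 0.19 for Jak2 U13396_at, -0.092 to 0.13 for Stat5a U24175_at, -0.10 to 0.053 for Stat5b, -0.091 to 0.45 for Stat3 rc_AI639141_at, -0.39 to 0.25 for Fyn, -0.033 to 0.20 for Stat2 and -0.44 to 0.45 for Cish. The cause of these turns was not tested. Arrays of the same replicate number correlated at -0.05, -0.20 and 0.18 in their deviations from the diet means. Deviations from a mean of 3 arrays are tied to one another, so these values cannot show whether such arrays were paired. Limma with a replicate block called 0 probe sets of the 6 genes and 0 of all 5244. With 3 arrays per diet and values near or below 0 for Ghr, Prl and Socs3, no diet difference could be read for those genes.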

Other observations

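Ccnd1, the G1 cyclin gene and a STAT5 and STAT3 target in several tissues, was looked at after its values were seen because its probe sets leaned one way. Of its 5 probe sets, 4 had all 3 high corn oil arrays above all 3 low corn oil arrays. D14014_g_at read 4081.2, 4142.5 and 5165.3 in high corn oil rats, against 3403.0, 3139.7 and 3413.3 in low corn oil rats, a log2 difference of 0.40 ± 0.16 (limma adjusted p = 0.480). The difference was 0.42 ± 0.18 for rc_AA957218_at and 0.41 ± 0.19 for X75207_s_at, and rc_AI231257_at was under the filter. The brightest probe set, D14014_at, read 2943.9, 5815.7 and 6449.9 in high corn oil rats, against 3296.0, 2685.5 and 3443.7 in low corn oil rats, and separated by spike-in signal. None passed limma with all arrays, the probe sets share the same 6 RNA samples, and diets did not overlap in 15.5% of all tested probe sets.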
